A study of Sus scrofa with 15 samples.

Results

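A set of 100 genes was taken whose transcript level was lowest, or nearly lowest, in every library of 3 mutant PKD2 groups of the pig kidney line LLC-PK1. Of 16660 genes in the count table, 9536 had a mean of 10 or more CPM (counts scaled to the library's column total), and for each of these the highest of the 9 mutant libraries was subtracted from the lowest of the 6 control libraries on a log2(CPM + 1) scale. The 100 highest of these scores chose the members, so the measured difference between mutants and controls is what selected them. None of the 18 symbols that the rule sets aside was among the 100. A symbol was found for 94 members, and 6 are known here only by their Ensembl number.

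LLC-PK1 cells are an established pig line with features of the proximal tubule. They were transfected with 3 µg of a plasmid and harvested 48 h later for mRNA sequencing, with 3 libraries in each of 5 groups. By the study's methods, the libraries of a group came from wells of this line that were transfected separately, so the p-values measure the spread between such wells. NC cells received the pCAG-floxP-neo-pH11 plasmid without a PKD2 insert, and WT cells received it with FLAG-tagged WT human PKD2. The titles of the WT libraries carry the genotype number that Tg3 also has, while the tag in those titles and the plasmid label both give WT. The mutant groups received the same construct with the change A1532T (D511V) in Tg1, T1967G (L656W) in Tg2 or C2224T (R742X) in Tg3. According to the study, the Tg3 product has neither the C-terminal part nor the FLAG tag, so its Western blot left Tg3 out. All PKD2 inserts were driven by the CAG promoter, a strong promoter active in most cell types, on top of the pig cells' own PKD2 gene, and transfection is transient, so each library mixes cells that took up the plasmid with cells that did not. Fewer cells with a transcript and less transcript per cell cannot be told apart in such bulk RNA.

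PKD2 encodes polycystin-2, a cation channel of the primary cilium and the endoplasmic reticulum, and its loss of function causes autosomal dominant polycystic kidney disease. The proximal tubule, from which the line derives, reabsorbs filtered solutes with the help of abundant mitochondria, endosomes and lysosomes, and its cells carry a primary cilium. Several members code for proteins of these compartments, and their roles order the account below.

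The members were lower in the mutants by small amounts. Mean CPM in the 9 mutant libraries was below that in the 6 WT and NC libraries by 5.10% to 26.5%, with a median of 10.8%, on column totals. With TMM scaling, edgeR's correction for the make-up of each library, the range was 1.79% to 23.9% and the median 7.68%. Percentages given below for single genes are on column totals, and so are statements on overlapping or touching ranges unless TMM is named. With TMM the percentages were smaller for 100 of 100 members, by 2.40 to 3.33 percentage points, and by more than 1.5 times for 33. On column totals, every mutant library was below every WT and NC library in 67 members, which is 0.703% of the scored genes by construction. In the other 33 the ranges touched by a narrow margin. The opposite pattern, every mutant library above every control library, was found for 46 genes, or 0.482%. Neither share is a test, since the first is the rule itself. On TMM-scaled CPM, 34 of the 100 members showed no overlap, beside 52 of all scored genes, or 0.545%.

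**Figure D1:**
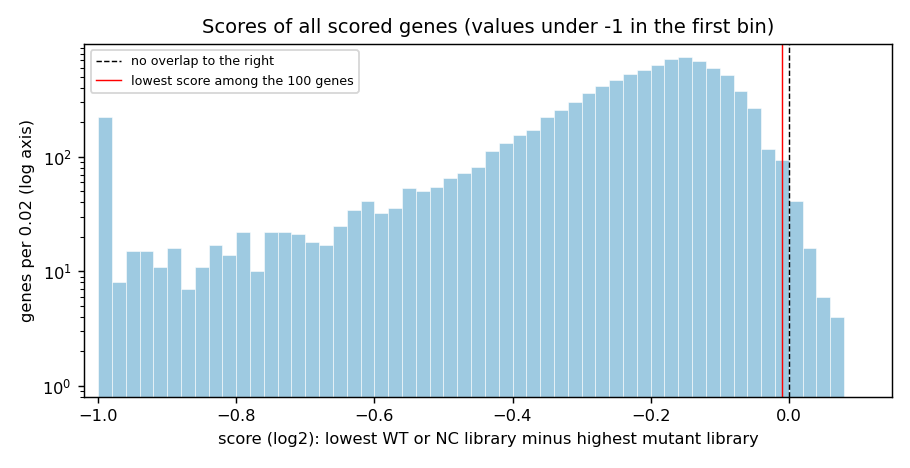
Number of genes (log axis) against the score in log2 units, in bins of 0.02, for all 9536 scored genes, with a dashed line at 0 and a red line at the lowest score among the 100 members. The members are the right-hand tail, from -0.009 to 0.071, beside a median of -0.20 over all scored genes.

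The cut fell among genes with nearly equal scores. The last members inside it were NEK1, a kinase of the primary cilium, ACADL, the long-chain acyl-CoA dehydrogenase of fatty acid oxidation, and FBXL20, a substrate receptor of an SCF ubiquitin ligase. NEK1 measured 36.1 to 42.6 CPM in WT and NC (median 37.5) against 30.5 to 36.4 CPM in the mutants (median 33.4). ACADL measured 39.6 to 45.1 CPM in WT and NC (median 40.8) against 35.4 to 39.9 CPM in the mutants (median 38.2). FBXL20 measured 26.7 to 31.2 CPM in WT and NC (median 30.04) against 22.1 to 26.9 CPM in the mutants (median 25.2). Just outside it were CANX, the endoplasmic reticulum chaperone calnexin, SCNN1A, the alpha subunit of the epithelial sodium channel, and INKA2, an inhibitor of PAK4. CANX measured 675 to 718 CPM in WT and NC (median 709) against 640.3 to 679.7 CPM in the mutants (median 654). SCNN1A measured 15.3 to 16.3 CPM in WT and NC (median 15.8) against 13.5 to 15.4 CPM in the mutants (median 14.2), and INKA2 measured 25.2 to 29.7 CPM in WT and NC (median 27.3) against 20.98 to 25.4 CPM in the mutants (median 23.5). Genes on either side of the cut therefore looked alike, and membership near it is a matter of ranking.

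The 100 genes covered a wide range of roles. These roles were not counted over all scored genes, so no excess of any role can be read here. By textbook role, assigned after the names were seen, 16 act in the lysosome, endosome or Golgi, 16 in the cytoskeleton, centrosome or cilium, 16 in chromatin and transcription, 13 in sterol, fatty acid and mitochondrial metabolism, 10 in signalling and the cell cycle, 9 in the ubiquitin system, 7 in RNA processing and translation and 4 in junctions and matrix. Median log2 differences, mutants minus WT and NC in the edgeR fit with TMM scaling, lay between -0.09 for the metabolic genes and -0.14 for the junction and matrix genes, so no role stood far from the median of -0.12 over all members.

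**Figure D2:**
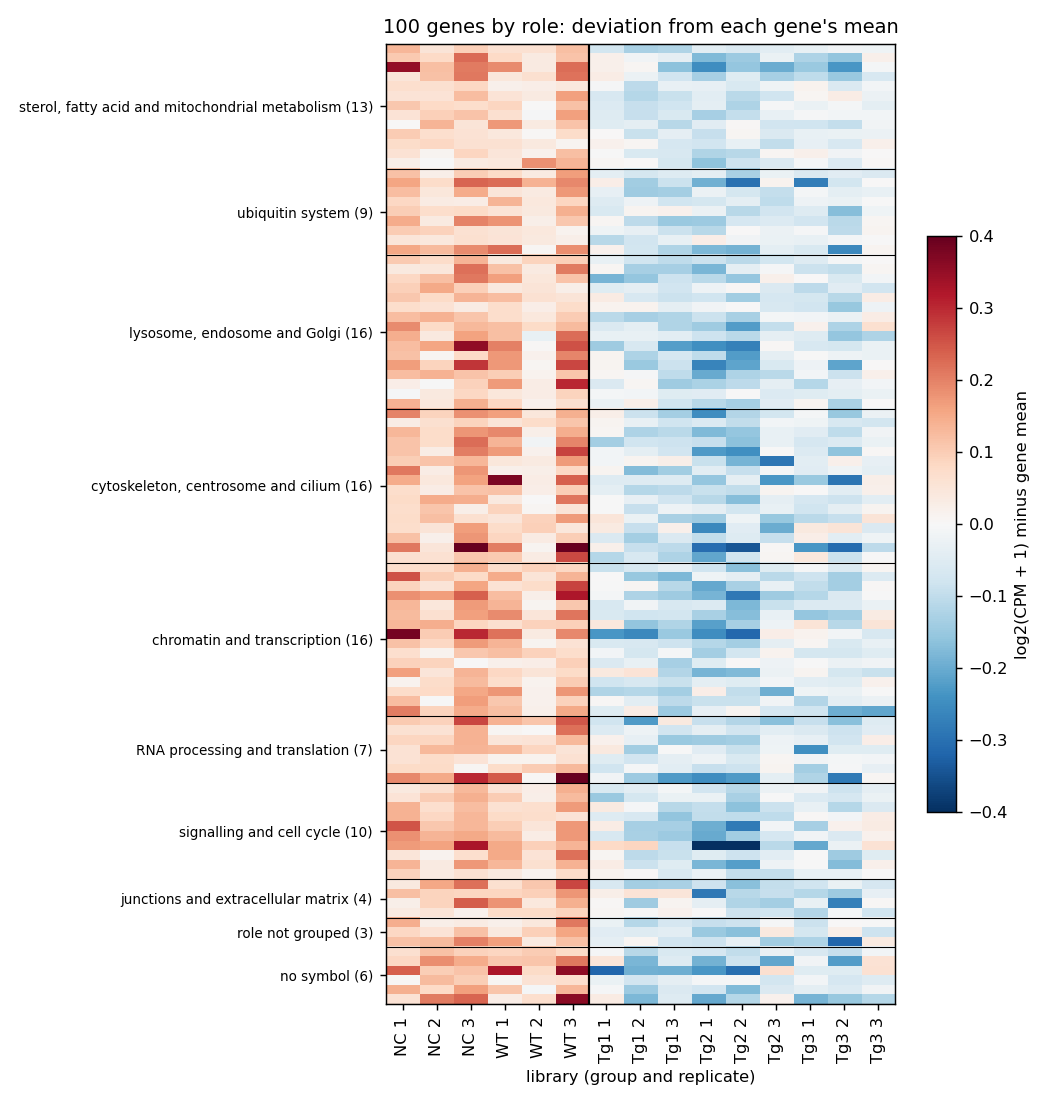
Each row is a member, ordered by role, and each column a library; colour is log2(CPM + 1) minus the gene's mean over the 15 libraries, red above and blue below, with a vertical line between the 6 NC and WT libraries and the 9 mutant libraries. Median deviations over the members were 0.036 to 0.136 in WT and NC and -0.109 to -0.011 in the mutants.

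Among the metabolic members, CYP51A1 (ENSSSCG00000015311), the lanosterol demethylase of cholesterol synthesis, had the highest score of all named genes. It measured 113, 116 and 120.1 CPM (lowest, median and highest) in the 6 WT and NC libraries and 100.1, 106 and 108 CPM in the 9 mutant libraries. Every mutant library was below every control library on column totals, while on TMM-scaled CPM the ranges touched (score -0.003). The mean was lower by 9.64%, and the log2 difference with TMM scaling was -0.10 ± 0.02 (SE). SCD, the stearoyl-CoA desaturase, was the most abundant member, at 1003 to 1098 CPM in WT and NC (median 1017) against 904 to 999 CPM in the mutants (median 938). FADS2, the delta-6 desaturase, ran from 294 to 317 CPM in WT and NC (median 302) against 268 to 296 CPM in the mutants (median 289). The mutant means of SCD and FADS2 were lower by 8.95% and 6.37% (5.75% and 3.11% with TMM), and the ranges of FADS2 overlapped narrowly.

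The fatty acid oxidation genes differed little. ACADM, the medium-chain acyl-CoA dehydrogenase, measured 181 to 189.9 CPM in WT and NC (median 187) against 167 to 182 CPM in the mutants (median 175). ACSL1, which activates long-chain fatty acids, measured 123 to 128 CPM in WT and NC (median 125) against 112 to 122 CPM in the mutants (median 118). Their log2 differences were -0.04 ± 0.03 and -0.03 ± 0.02 (SE) with TMM scaling, and that of ACADL was -0.07 ± 0.03. These were the only 3 members on any of the 10 pathway lists used here. SLC25A16, a carrier of the inner mitochondrial membrane, was the metabolic member with the largest difference, at -0.28 ± 0.05. The others were OSBPL10, an oxysterol-binding-related protein, NNT, the mitochondrial transhydrogenase, MIOX, the kidney enzyme that opens myo-inositol, NIPSNAP3A, the mitophagy receptor BNIP3L and the thioredoxin-like TXNL1, lower by 8.62%, 9.03%, 12.00%, 12.8%, 9.51% and 6.46% in mean CPM.

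In the lysosome, endosome and Golgi group, ATP6V1A (ENSSSCG00000011916), the catalytic subunit of the proton pump that acidifies lysosomes, measured 278, 289 and 298 CPM (lowest, median and highest) in the 6 WT and NC libraries and 251, 257 and 271 CPM in the 9 mutant libraries. No mutant library reached the lowest control library on column totals, and the mean was lower by 9.82%. On TMM-scaled CPM the ranges of ATP6V1A touched (score -0.014). TBC1D5, which switches off the late endosomal GTPase RAB7, measured 43.5 to 49.6 CPM in WT and NC (median 44.9) against 37.2 to 42.7 CPM in the mutants (median 39.9). NBEAL1, a BEACH-domain protein, measured 40.8 to 45.9 CPM in WT and NC (median 42.9) against 34.6 to 40.05 CPM in the mutants (median 37.2). Both separated the sides completely on column totals. On TMM-scaled CPM the ranges of TBC1D5 touched (score -0.009) and those of NBEAL1 did not (score 0.017). Their log2 differences with TMM scaling were -0.14 ± 0.04 and -0.16 ± 0.03 (SE).

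Larger differences were seen for GNPTAB, which makes the mannose 6-phosphate tag of lysosomal enzymes, at -0.23 ± 0.04 on the TMM log2 scale. CLCN6, a late endosomal chloride-proton exchanger, followed at -0.27 ± 0.05. The ranges of both touched on column totals, while on TMM-scaled CPM they did not (scores 0.030 and 0.007). The remaining genes of this group were TMEM106B and SLC15A4 of the lysosomal membrane, the SNARE protein STX7, the autophagy receptor NBR1, the sorting nexin SNX33, the Golgi GTPase RAB6A, SFT2D2, FAM91A1 of Golgi tethering, the flippase ATP11B, the glycosyltransferase-like GLT8D1 and C2CD5. Their log2 differences ran from -0.03 for NBR1 to -0.15 for ATP11B.

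The ubiquitin ligases NEDD4L and ITCH, both of the NEDD4 family, were members. NEDD4L (ENSSSCG00000004919), known for removing the epithelial sodium channel from the membrane, measured 154, 161 and 170.4 CPM (lowest, median and highest) in the 6 WT and NC libraries and 139, 146 and 149 CPM in the 9 mutant libraries, a mean lower by 9.61% with no overlap. ITCH was lower by 12.7%, also with no overlap. On TMM-scaled CPM the ranges of NEDD4L touched (score -0.014) and those of ITCH did not (score 0.028). The deubiquitinase USP20 measured 17.03 to 19.2 CPM in WT and NC (median 18.4) against 12.9 to 16.5 CPM in the mutants (median 15.1), and its log2 difference of -0.25 ± 0.05 (SE) was the largest in the group. DCAF11, a substrate receptor for CUL4 ligases, and UEVLD, an E2-variant protein, measured 123 to 133 CPM in WT and NC (median 126) against 113 to 120.5 CPM in the mutants (median 117) and 30.6 to 33.8 CPM in WT and NC (median 31.7) against 26.9 to 29.6 CPM in the mutants (median 28.99), respectively. The 4 others, RNF146, PJA2, FBXL20 and the E2 enzyme UBE2Q2, had log2 differences from -0.03 for PJA2 to -0.21 for FBXL20.

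Cytoskeletal, centrosomal and ciliary members included the largest difference of all. MYO7A (ENSSSCG00000014876), an unconventional myosin, measured 13.7, 15.8 and 20.4 CPM (lowest, median and highest) in the 6 WT and NC libraries and 10.5, 12.6 and 13.8 CPM in the 9 mutant libraries. The groups touched only at the library WT replicate 2, which was the lowest control at 13.7 CPM, and the log2 difference was -0.39 ± 0.08 (SE). MYO6, the minus-end-directed myosin of endocytosis, measured 342 to 363 CPM in WT and NC (median 355) against 309 to 340.1 CPM in the mutants (median 325), and LMTK2, a membrane kinase that binds myosin VI, measured 78.8 to 85.5 CPM in WT and NC (median 80.8) against 71.6 to 77.1 CPM in the mutants (median 75.2). Both showed no overlap on column totals, with means lower by 8.41% and 8.53%. On TMM-scaled CPM the ranges of LMTK2 touched (score -0.015) and those of MYO6 did not (score 0.0008).

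Ciliary and centrosomal members were few. NEK3, a kinase related to NEK1, measured 13.4 to 17.3 CPM in WT and NC (median 14.7) against 10.5 to 13.4 CPM in the mutants (median 12.6). CEP89, a protein of the centriole's distal appendages, measured 13.9 to 15.2 CPM in WT and NC (median 14.2) against 11.1 to 13.9 CPM in the mutants (median 12.98). KATNIP, a ciliary protein linked to Joubert syndrome, and INPP5B, a phosphoinositide phosphatase found at the cilium, were lower by 11.7% and 10.4% in mean CPM. AMN1, NEK3 and CEP89 had the lowest mean CPM of the members with a symbol. The remaining cytoskeletal members were KIF1B, DYNLL2, DPYSL2, PPFIBP1, ARHGEF18, PKN2, MOB1B, RHOBTB3 and the prefoldin subunit VBP1, between -0.05 for PKN2 and -0.19 for RHOBTB3 on the TMM log2 scale.

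SETD7 (ENSSSCG00000030396), which methylates histone H3 lysine 4 and other proteins, led the chromatin and transcription members. It measured 224, 226 and 236 CPM (lowest, median and highest) in the 6 WT and NC libraries and 190.3, 206 and 215 CPM in the 9 mutant libraries. Every control library was above every mutant library, and the mean was lower by 9.73%. ZBTB11, a zinc finger transcription factor, measured 28.3 to 32.7 CPM in WT and NC (median 29.6) against 23.9 to 27.3 CPM in the mutants (median 25.7), and MLLT10, a cofactor of the DOT1L histone methyltransferase, measured 55.9 to 65.3 CPM in WT and NC (median 57.1) against 46.7 to 54.2 CPM in the mutants (median 50.3). Further DNA-binding members were ZBTB41 at -0.30 ± 0.05 and ZBTB44 at -0.26 ± 0.04 (log2, SE), both without overlap. POGZ, TASOR, ZZZ3, MAU2, MED23, ZFP2, ZFP90, DMTF1, SMAD9, RBBP8 and RSBN1 completed the group and were lower by 6.16% for RBBP8 to 14.6% for POGZ in mean CPM (2.90% and 11.5% with TMM).

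Of the RNA-binding members, ZC3H6, a zinc finger protein, measured 16.00 to 18.2 CPM in WT and NC (median 16.4) against 12.6 to 15.4 CPM in the mutants (median 13.97) and showed no overlap. CPEB4, a regulator of cytoplasmic polyadenylation, measured 111 to 146 CPM in WT and NC (median 129) against 90.8 to 111 CPM in the mutants (median 100.1), with a log2 difference of -0.31 ± 0.05 (SE). PAPOLA, the nuclear poly(A) polymerase, had the smallest difference of all members, at -0.03 ± 0.02. HNRNPLL, DHX40, CLK4 and the splicing factor USP39 lay between -0.08 and -0.12.

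All 10 signalling and cell cycle members, LMTK2 among them, had every mutant library below every control on column totals. The rule selects for this, and it held in 67 of all 100 members (0.703% of the scored genes). On TMM-scaled CPM the ranges of LMTK2, KIDINS220, AMN1, CDKN1B, RIOK3 and PPP4R3B overlapped (scores from -0.041 to -0.015). BRAF, a kinase of the MAPK pathway, was lower by 14.7% in mean CPM, and PLCB1, a phospholipase C, by 14.4%. CDKN1B, the cell cycle inhibitor p27, was lower by 10.5%. AMN1, whose yeast counterpart antagonises mitotic exit, measured 13.8 to 16.4 CPM in WT and NC (median 14.5) against 9.33 to 13.7 CPM in the mutants (median 12.03). KIDINS220, CACNB3, RIOK3 and PPP4R3B were lower by 10.1%, 12.5%, 5.96% and 10.1%. For RIOK3 the value with TMM was 2.65%.

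A small group of 4 members belongs to junctions or the extracellular matrix. CLDN10 (ENSSSCG00000009500), a tight junction claudin that forms paracellular ion channels in the tubule, measured 98.2, 98.7 and 105 CPM (lowest, median and highest) in the 6 WT and NC libraries and 75.8, 86.7 and 96.2 CPM in the 9 mutant libraries. TECTA, a matrix protein best known from the inner ear, measured 26.6 to 31.3 CPM in WT and NC (median 28.4) against 22.9 to 25.4 CPM in the mutants (median 24.4) and had a log2 difference of -0.20 ± 0.04 (SE). COL5A2, a fibrillar collagen chain, and PODN, a small proteoglycan, were lower by 13.1% and 6.36% (10.03% and 3.09% with TMM). On column totals CLDN10, TECTA and COL5A2 showed no overlap and PODN touched, while on TMM-scaled CPM the ranges of all 4 overlapped. The members TMEM248, FAM76B and C2orf49 were placed in no role. The member with the highest score of all, ENSSSCG00000000529, has no symbol here and measured 65.9 to 68.3 CPM in WT and NC (median 67.00) against 58.2 to 62.6 CPM in the mutants (median 60.1).

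**Figure D3:**
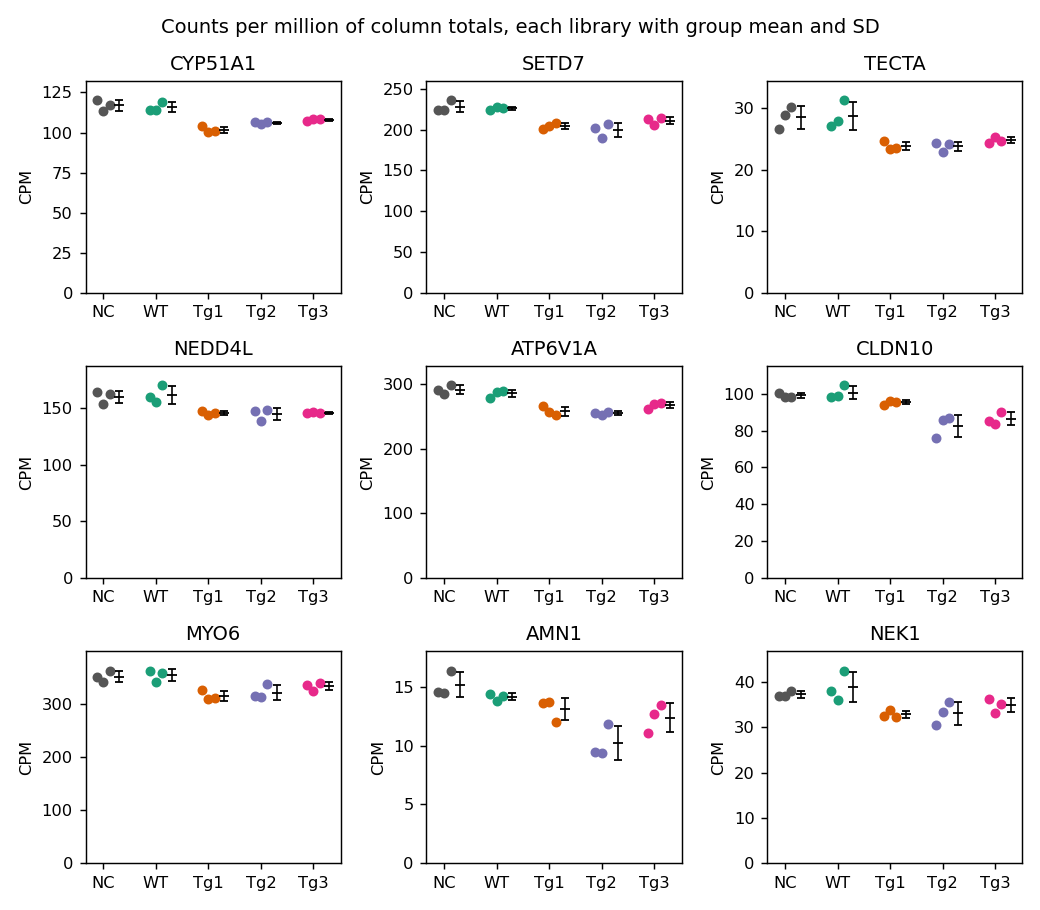
CPM from column totals in each library (coloured points) with the group mean and SD (black) for 9 members in NC, WT, Tg1, Tg2 and Tg3; axes start at 0. The steps are small against the level of each gene, from 8.41% for MYO6 to 18.8% for AMN1, and CLDN10 and AMN1 are spread among the mutants.

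Each mutant was then set against each control in the edgeR fit of all 15 libraries, as values only, because the rule used them. The comparisons against NC share the NC libraries and those against WT share the WT libraries. Median log2 differences over the members were -0.12, -0.12 and -0.11 for Tg1, Tg2 and Tg3 against NC, and -0.12, -0.12 and -0.11 against WT. The same medians over the 11553 genes whose mean CPM reached 2 lay between -0.01 and 0.00. Of the 100 members, 99, 98 and 99 were lower against NC and 100, 95 and 100 against WT. No mutant and no control stood apart in these medians.

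Comparisons that do not oppose mutants to controls were tested with edgeR's quasi-likelihood test, adjusted by Benjamini-Hochberg over 11553 genes, and called at an adjusted p of 0.05 or less when the log2 fold change also reached 0.26 in size. A gene whose libraries vary little within a side scores higher, so the choice also favours small differences here, and these counts do not stand apart from the rule. WT against NC called 0 members and 0% of all genes, with 3 members and 524 genes (4.54%) at an unadjusted p under 0.05. The 3 were SNX33, CDKN1B and ACADL, at 0.14 ± 0.05, 0.11 ± 0.04 and 0.11 ± 0.05 (log2, SE), all higher in WT. The median over members was -0.01. DESeq2 called 11 genes in WT against NC, 162 in Tg1 against Tg2, 139 in Tg1 against Tg3 and 0 in Tg2 against Tg3, and it called 0 members in any of the 4 comparisons.

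Between mutants, no member was called either. Tg1 against Tg2 called 0.138% of all genes and 0 members, with 7 members and 2284 genes (19.8%) at an unadjusted p under 0.05. The smallest adjusted p in edgeR belonged to CLDN10, which measured 94.1, 96.2 and 95.8 CPM in Tg1, 75.8, 85.6 and 86.7 CPM in Tg2 and 85.4, 83.5 and 90.3 CPM in Tg3. Tg1 was highest in all its libraries, and the log2 difference to Tg2 was 0.17 ± 0.04 (SE, adjusted p = 0.0794). AMN1 had the largest difference, 0.33 ± 0.09 (adjusted p = 0.111), at 13.7, 13.7 and 12.03 CPM in Tg1 and 9.45, 9.33 and 11.9 CPM in Tg2. CYP51A1 had a log2 difference, Tg1 minus Tg2, of -0.10 ± 0.03 (adjusted p = 0.136).

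Tg1 against Tg3 called 0.615% of all genes and 0 members in edgeR, with 10 members and 1828 genes (15.8%) at an unadjusted p under 0.05. C2CD5 came closest, at 66.2, 65.1 and 65.7 CPM in Tg1 and 70.9, 70.3 and 72.9 CPM in Tg3, a log2 difference of -0.12 ± 0.03 (SE, adjusted p = 0.0939). CLDN10 followed at 0.14 ± 0.04 (adjusted p = 0.131). In Tg2 against Tg3, 0 members and 0% of all genes were called, with a smallest edgeR adjusted p of 0.822. An unadjusted p under 0.05 was found for 6 members and 673 genes (5.83%). The median standard error of a member was 0.05 in each of these comparisons, so small differences between mutants may not have been detectable, and the missing calls do not show that the mutants act alike.

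**Figure D4:**
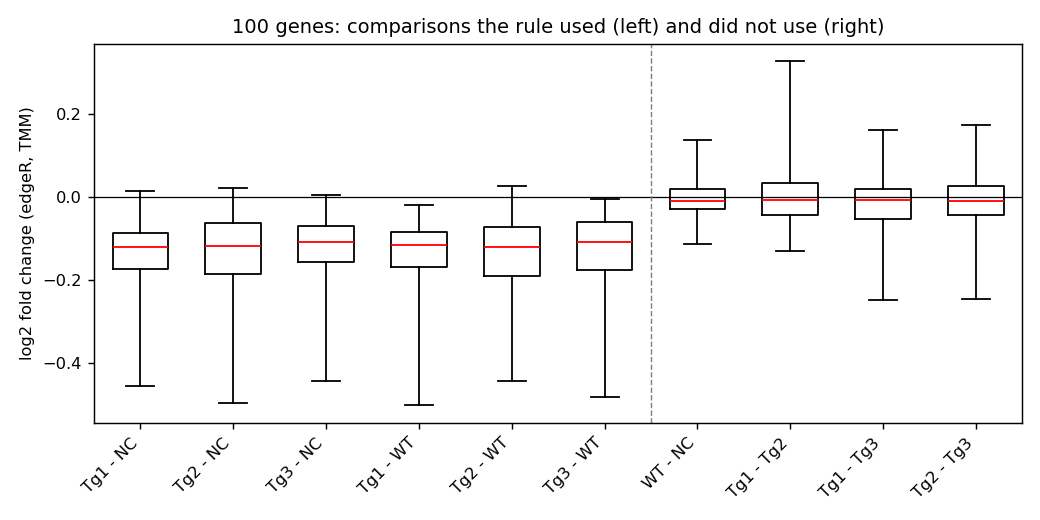
Log2 fold changes of the 100 members (edgeR, TMM scaling) in 10 comparisons; boxes give the quartiles, red lines the median and whiskers the lowest and highest member, with the 6 comparisons used by the rule left of the dashed line. Medians on the left lie between -0.12 and -0.11, and all 4 on the right at -0.01. The rule favours a gap on the left and small differences on the right, so this contrast is no test.

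To read the same measure in libraries that did not enter the score, the rule was applied to the 10 libraries of 2 replicate numbers. The 100 highest scores were read in the remaining 5. With replicate number 1 held out, 94 of the 100 were lower in the mutants, beside 66.2% of all scored genes, and the median log2 difference was -0.15 beside -0.05. For number 2 the count was 97 beside 60.1%, and the medians were -0.16 and -0.02. For number 3 it was 95 beside 67.3%, with medians of -0.16 and -0.06. All 3 mutant libraries were below both control libraries for 45, 45 and 71 of the 100, against 24.8%, 16.5% and 38.6% of all scored genes. With TMM-scaled CPM the counts of lower genes were 93, 96 and 94 beside 48.9%, 48.7% and 48.7% of all. Each choice is its own list, and on column totals 21, 10 and 40 of its genes were members. The counts therefore describe these lists and not the 100 members. The mean CPM minimum was taken over all 15 libraries.

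**Figure D5:**
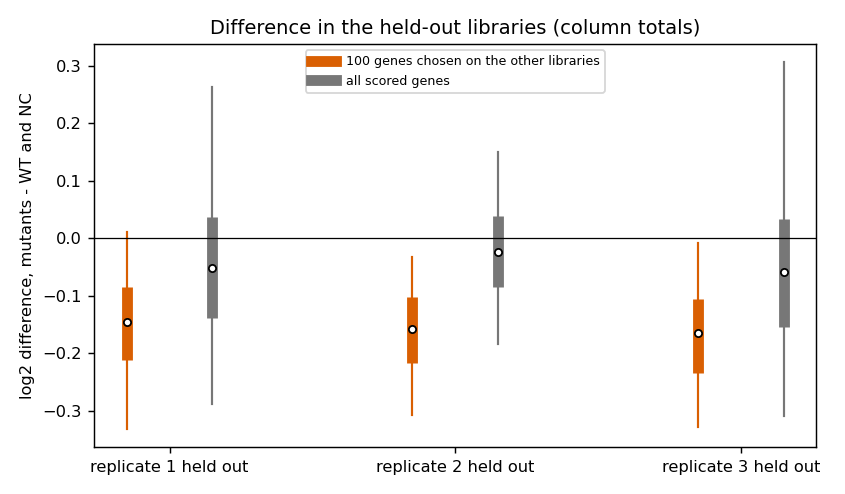
Log2 difference, mutants minus WT and NC, in the 5 held-out libraries for 100 genes chosen on the other 10 libraries (orange) and for all 9536 scored genes (grey); thick bars span the quartiles, thin lines the 5th to 95th percentile and circles the median. The chosen genes have medians from -0.16 to -0.15, below the -0.06 to -0.02 of all scored genes.

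Scaling by the column total carried part of the difference. In the edgeR fit with column totals, the median over all genes was -0.05 and over members -0.17, while with TMM scaling they were -0.003 and -0.12, a gap of -0.11 in both. On TMM-scaled CPM, 34 of the 100 members kept all mutant libraries below all controls, and 52 genes in the table, or 0.545%, did so. The members' share of all counts was 0.954% to 1.02% in WT and NC and 0.860% to 0.919% in the mutants.

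A few libraries set which genes were taken. WT replicate 2 was the lowest control for 50 of the 100 members, and Tg1 replicate 1 and Tg3 replicate 3 were the highest mutant libraries for 27 and 25. Without WT replicate 2, 529 genes had no overlap in place of 67 and 25 of the 100 members were chosen again. Without Tg1 replicate 1 these numbers were 200 and 35, and without Tg3 replicate 3 they were 117 and 63. The median TMM log2 difference of the 100 members was -0.12 without WT replicate 2 or Tg1 replicate 1 and -0.11 without Tg3 replicate 3.

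Other transcripts moved with the same split of libraries, and their part in the members' values was not tested. Of 33 interferon response genes tested, 23 rose in the mutants against WT and NC and 0 fell (edgeR, same thresholds), beside 4.15% of all genes called higher and 2.72% called lower. IFIT1, an antiviral RNA-binding protein, measured 3138 ± 1115 CPM (SD, n = 6) in WT and NC against 4632 ± 850.0 CPM (SD, n = 9) in the mutants, a log2 difference of 0.60 ± 0.20 (SE, adjusted p = 0.0432). The interferon list took 1.93% to 3.92% of counts in WT and NC and 2.90% to 4.73% in the mutants. Within controls, its share was highest in WT replicate 2, and within mutants it was lowest in Tg1 replicate 1, the same libraries that most often set the score.

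Markers of the labelled cell type were present. Of 9 proximal tubule markers, 9 were tested and 4 fell in the mutants, namely LRP2, SLC34A1, SLC9A3 and PDZK1. LRP2, the endocytic receptor megalin, measured 296 ± 24.7 CPM (SD, n = 6) in WT and NC against 238 ± 22.3 CPM (SD, n = 9) in the mutants, a difference of -0.27 ± 0.05 (SE, edgeR adjusted p = 0.0105). The summed level of these markers was 1132 to 1494 CPM in WT and NC and 894 to 1303 CPM in the mutants, whereas 8 markers of renal epithelium summed to 3885 to 4114 and 3873 to 4262 CPM. Of the markers of other cell types, 5 endothelial ones summed to 2.56 to 5.02 CPM and 6 leukocyte ones to 22.3 to 26.1 CPM. The 9 distal tubule and collecting duct markers summed to 283 to 311 CPM in WT and NC and 249 to 292 CPM in the mutants, with UMOD, SLC12A3 and CALB1 below 1 CPM in the mean of each side. Of the 4 distal markers tested, SLC12A1 fell and SCNN1G rose. Fibroblast markers summed to 917 to 1069 CPM in WT and NC and 808 to 1011 CPM in the mutants, and 5 of the 6 had a mean CPM under 2. Their relation to the members was not tested.

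Other genes of the pathway lists were read in the same fit and called at the same thresholds. Over all 11553 genes, 2.72% were called lower and 4.15% higher. Their median log2 difference was -0.003, and 51.0% were below 0. The lists were chosen with earlier results of these data known, and no excess in a list was tested. Among fatty acid and amino acid catabolism genes that were no members, 7 of 35 fell in the mutants and 0 rose, including DAO and GPT2, with a median log2 difference of -0.10. Of 53 primary cilium and centrosome genes, 3 fell and 0 rose, namely DYNC2H1, BBS12 and RPGRIP1L, with a median of -0.09. In 43 autophagy and nutrient sensing genes 6 fell and 0 rose, with a median of -0.08, and in 49 chromatin and transcription regulators 2 fell and 0 rose, with a median of -0.10. Actin, adhesion and matrix genes gave 9 lower and 1 higher of 46 at a median of -0.14, and proximal tubule transport genes 7 and 1 of 30 at -0.21. NRF2 targets and glutathione genes gave 3 lower and 0 higher of 28 at -0.03, and tubule transcription factors 3 and 1 of 26 at -0.08. Mitochondrially encoded genes gave 3 and 0 of 13 at -0.19, and without the thresholds 13 were below 0 and 0 above.

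Lists added after the members' names were known placed single members among their partners. The 20 other cholesterol synthesis and uptake genes tested had a median log2 difference of -0.02, with 13 below 0 and 7 above, and 1 fell and 0 rose at the thresholds. Among them, and chosen after their values were seen, MSMO1, which acts downstream of CYP51A1, and FDFT1 and SQLE, which lead to its substrate, had log2 differences of -0.12 ± 0.03, -0.11 ± 0.04 and -0.09 ± 0.03 (SE, edgeR adjusted p = 0.016, 0.0401 and 0.0469), under the fold-change threshold. Among 10 other fatty acid synthesis and desaturation genes, 1 fell, the acetyl-CoA synthetase ACSS2, and 0 rose. Of the 5 other NEDD4 family ligases and the 12 other subunits and partners of the proton pump, 0 were called (edgeR). SMURF2 at -0.12 ± 0.03 and the pump subunits ATP6V1B1 at -0.12 ± 0.03 and ATP6V0A1 at -0.13 ± 0.04 were below the controls, while WWP2 at 0.23 ± 0.07 and SMURF1 at 0.18 ± 0.04 were above them, each with an adjusted p of 0.05 or less but under the fold-change threshold.

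By gene span in RefSeq (Sscrofa11.1), matched by symbol for 87 members and 8140 of the 9536 scored genes, the members had a longer median span than the rest. It was 48.9 kb, beside 30.6 kb over all scored genes and 16.6 kb over 88 of the 100 genes with the highest opposite score. Genes over 100 kb made up 21.8% of the members and 17.0% of all scored genes. Few members were neighbours, and 4 pairs lay within 10 protein-coding genes of each other, such as BNIP3L with DPYSL2 and RBBP8 with RIOK3. The part of gene span in the score was not tested.

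Library totals ran from 20216200 to 26132196 counts, and the lowest count of any member in any library was 191, for which counting error alone is 7.24%. The median spread between replicates of a group was 0.06 on the log2 scale for the members and 0.08 over all scored genes. The rule favours genes that vary little, so a lower spread among the members is part of the choice.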

How the data were processed

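The 15 libraries of LLC-PK1 cells were oligo(dT)-selected RNA-seq, 3 per group. Per the labels and the study's methods, the authors quantified transcripts with Salmon against an Ensembl annotation and deposited whole-number counts per gene in 1 table, which they tested with DESeq2. A genome build is not given in the sources used here. All columns of the table were matched to samples by name. CPM was computed from column totals, members were chosen by the stated score with a mean CPM minimum of 10 and a pseudocount of 1, and the members and gene lists were chosen with earlier results of these data known. Genes named in the text are the 15 with the highest scores, members on a pathway list, the 3 most and 3 least abundant with a symbol, and 3 on each side of the cut; further members are named by role, chosen after their values were seen. Counts of the 11553 genes whose mean CPM reached 2 were fitted with edgeR 4.0.16 (limma 3.58.1, R 4.3.3; TMM scaling, glmQLFit, all 15 libraries, no covariate); DESeq2 1.42.0 was an alternative. Python 3.11.15, pandas 2.3.3 and numpy 2.4.6 did the rest. The fit and the score were also run on simulated data, where the planted changes were larger than the difference of any member. Those runs therefore say nothing about differences of the members' size. Pig and human PKD2 levels were not analysed here. A few genes are not reported here.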

Additional observations from a re-analysis of the deposited data

How the results depend on the processing

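Of the 100 members, 51 were chosen again with TMM-scaled CPM, and 25 to 96 when 1 library was left out. The other rules tried (leaving out the listed symbols first, a pseudocount of 0.5, a mean CPM of 2 or 20) kept 84 to 100. The median log2 difference of the members was -0.17 with column totals in place of TMM and -0.12 to -0.11 without each library in turn. Members called between WT and NC or between mutants stayed at 0 with DESeq2, DESeq2 size factors, other filters, no fold-change threshold or only the groups compared. Leaving out 1 library gave 0 to 1 such members: without Tg2 replicate 3, AMN1 was called in Tg1 against Tg2 (log2 difference 0.43, edgeR adjusted p = 0.0483). Same-numbered libraries of different groups did not all deviate together (correlations from -0.43 to 0.62 over 30 pairs, 21 of them over 0.1, mean 0.159 against -0.081 for pairs of unlike number, with 9 of 15 libraries closest to their own number; all 10 pairs of number 2 were over 0.1, against 5 of number 1 and 6 of number 3), so the numbers were not used as pairs. With the replicate number as a block, the members' median was -0.12 and 0 members were called, while all genes called in Tg1 against Tg2 went from 16 to 162 and in Tg1 against Tg3 from 71 to 108. CLDN10 then had an edgeR adjusted p of 0.0438 in Tg1 against Tg2, and 0.0402 with DESeq2, at a fold change under the threshold. For 12 of the 26 genes named by rule, column totals moved the log2 difference by more than the spread between replicates. With 3 libraries a group, small differences between mutants cannot be resolved.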
